A study of Mus musculus with 32 samples.

Results

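The 10 genes described here encode transcription factors of the lung epithelial lineage: Nkx2-1, Etv5, Cebpa, Foxa1, Foxa2, Gata6, Sox9, Elf3, Klf5 and Grhl2. They were chosen by name for their known roles, and no measured value enters the choice rule, although earlier results of these data were known at the time. All 10 were among the 11818 genes of the count table, and all 10 passed the filter on low counts in both cell populations. The libraries came from lung organoids, in which CD45-/CD31-/Epcam+ cells of 4 C57BL/6J mice aged 8 to 14 weeks grew in Matrigel beside CCL206 cells at a ratio of 1 to 1. CCL206 cells are mouse lung fibroblasts of an established line that had been inactivated with mitomycin C, so that the replicates of the fibroblast fraction are cultures of 1 line that differ in the mouse that gave the epithelial cells. For 72 h the cultures received vehicle, OGN (recombinant osteoglycin, a small leucine-rich proteoglycan, 10 µg/mL), or EVs (extracellular vesicles, 1000000000 particles per mL) or SFs (soluble factors, 30 µg/mL) of MRC5 human lung fibroblasts. The cells were then resorted with Epcam microbeads into Epcam+ cells and CCL206 fibroblasts, which gave 8 groups of 4 libraries, with each mouse present in every group.

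Alveolar type 2 (AT2) cells, which make surfactant and act as progenitors of the alveolus, are specified by a small circuit of transcription factors. Nkx2-1, a homeodomain protein, binds with the forkhead factors Foxa1 and Foxa2, with Gata6 and with Cebpa at surfactant genes, and Etv5 is an ETS factor induced by FGF-ERK signalling. Elf3, Klf5 and Grhl2 are expressed in many epithelia, where Grhl2 drives genes of cell adhesion. Sox9 marks the distal tip progenitors of the embryonic lung and is better known as the master regulator of cartilage, a mesenchymal tissue.

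For Foxa1 and Etv5, which were called against vehicle, and for Elf3, which differed most between the populations in vehicle-treated cultures, the 250 bases before the RefSeq start site (GRCm38.p6, minus strand, written 5′ to 3′ in the direction of transcription) are shown. Windows of this kind were found for 6 of the 10 members. Capitals mark matches, on either strand, to the forkhead letters TGTTTAC, the NK2 homeobox letters CAAGTG or the KLF letters CCNCNCCC. The letters CCGGAAG of ETS factors were searched as well, in the same way, and gave no match in these windows. No match was found either for the letters TTGCNNAA, which C/EBP proteins prefer, nor for the grainyhead letters AACCNGTT. The GATA letters AGATAA were absent from the windows shown, and so were, in either direction, the letters AACAATG of SOX proteins.
Foxa1, chr12:57546112-57546361: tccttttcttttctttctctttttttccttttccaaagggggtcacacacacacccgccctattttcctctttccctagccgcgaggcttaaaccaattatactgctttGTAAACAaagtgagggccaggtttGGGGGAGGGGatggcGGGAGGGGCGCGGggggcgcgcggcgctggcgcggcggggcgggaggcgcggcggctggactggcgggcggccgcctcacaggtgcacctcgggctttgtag
Etv5, chr16:22439571-22439820: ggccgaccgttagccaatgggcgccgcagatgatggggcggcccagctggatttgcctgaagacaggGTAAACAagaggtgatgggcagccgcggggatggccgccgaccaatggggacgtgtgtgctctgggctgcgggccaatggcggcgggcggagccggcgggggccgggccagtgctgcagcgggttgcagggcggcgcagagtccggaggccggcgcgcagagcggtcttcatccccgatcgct
Elf3, chr1:135258473-135258722: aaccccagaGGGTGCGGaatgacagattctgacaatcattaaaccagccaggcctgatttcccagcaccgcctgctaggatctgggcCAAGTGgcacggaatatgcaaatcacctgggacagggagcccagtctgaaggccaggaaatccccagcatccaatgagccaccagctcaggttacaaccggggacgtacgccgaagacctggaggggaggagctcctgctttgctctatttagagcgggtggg
A forkhead match lay 141 bases before the start site of Foxa1 and 183 before that of Etv5, and 3.17% of all 32851 windows of this length held 1. The Foxa1 window, which lies inside the span of the gene, also held 4 KLF matches in 2 overlapping pairs, and 45.9% of all windows held at least 1. The Elf3 window had an NK2 match 163 bases before the start, a kind found in 11.6% of windows, and a KLF match at 241. A second RefSeq start site of Etv5 had 4 KLF matches and no forkhead match in its window. These are matches of letters only, and no binding was measured. On the same build Foxa1 spans chr12:57540628-57548029 and has 2 exons, Etv5 spans chr16:22381313-22439570 with 13, and Elf3 spans chr1:135253574-135258472 with 9 (exons of the GENCODE vM39 canonical transcript).

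The 32 libraries held between 1805914 and 17675454 counts, with a median of 5901652. At this depth Nkx2-1 was read at least 249 times in each Epcam+ library, whereas Foxa1 had as few as 2 counts in a CCL206 library. Every gene listed was read at least once in all 32 libraries, so a factor that had no read in some fibroblast library would be missing from this description. Each gene of a list of 8 epithelial markers was higher in the Epcam+ than in the CCL206 libraries of the vehicle-treated cultures, as were 9 of 10 AT2 signature genes (Lrrk2 was not called), while 8 of 9 fibroblast signature genes were lower and Fbln1 was higher. Of 10 immune and endothelial markers, Cd68 alone was in the table, between 1.61 and 11 normalized CPM (counts scaled to library size). The EV-treated CCL206 libraries of mice 2 and 4 stood apart from the others. Their deviation from vehicle fell with transcript length, with a rank correlation across genes of -0.58 and -0.62 (mice 1 and 3 had -0.287 and -0.363), so the EV results of the fibroblast fraction that passed a test are also given without these mice.

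Within vehicle-treated Epcam+ cells, Nkx2-1, Cebpa and Klf5 had the highest levels per transcript length of the 10 members. Between genes, levels are compared per kb of transcript. Nkx2-1 had 66.6 ± 7.4 normalized CPM per kb (SD, n = 4 mice), Cebpa 66.6 ± 7.88 and Klf5 59.5 ± 8.54, and the libraries of these neighbours overlapped. Elf3 (41.8 ± 7.93), Foxa1 (39.8 ± 5.29) and Etv5 (28.8 ± 2.92) followed, again with overlap between neighbours, and none of the libraries reached the Klf5 range. Foxa2 (18.6 ± 2.91) and Grhl2 (12.8 ± 1.35) were each separate from both neighbours. Gata6 (6.14 ± 1.48) and Sox9 (5.78 ± 0.542) were the lowest on this scale and overlapped. In vehicle-treated CCL206 fibroblasts the order was turned around for Sox9, which led with 27.3 ± 2.24 CPM per kb and lay above every other member without overlap. Klf5 (19.1 ± 4.57), Etv5 (14.9 ± 1.75), Cebpa (10.6 ± 3.48) and Nkx2-1 (10.5 ± 4.54) came next and overlapped from neighbour to neighbour. Gata6 (3.56 ± 0.83), Foxa2 (2.26 ± 1.17), Foxa1 (1.75 ± 0.896), Elf3 (1.71 ± 0.983) and Grhl2 (0.774 ± 0.457) formed the lower end.

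**Figure D1:**
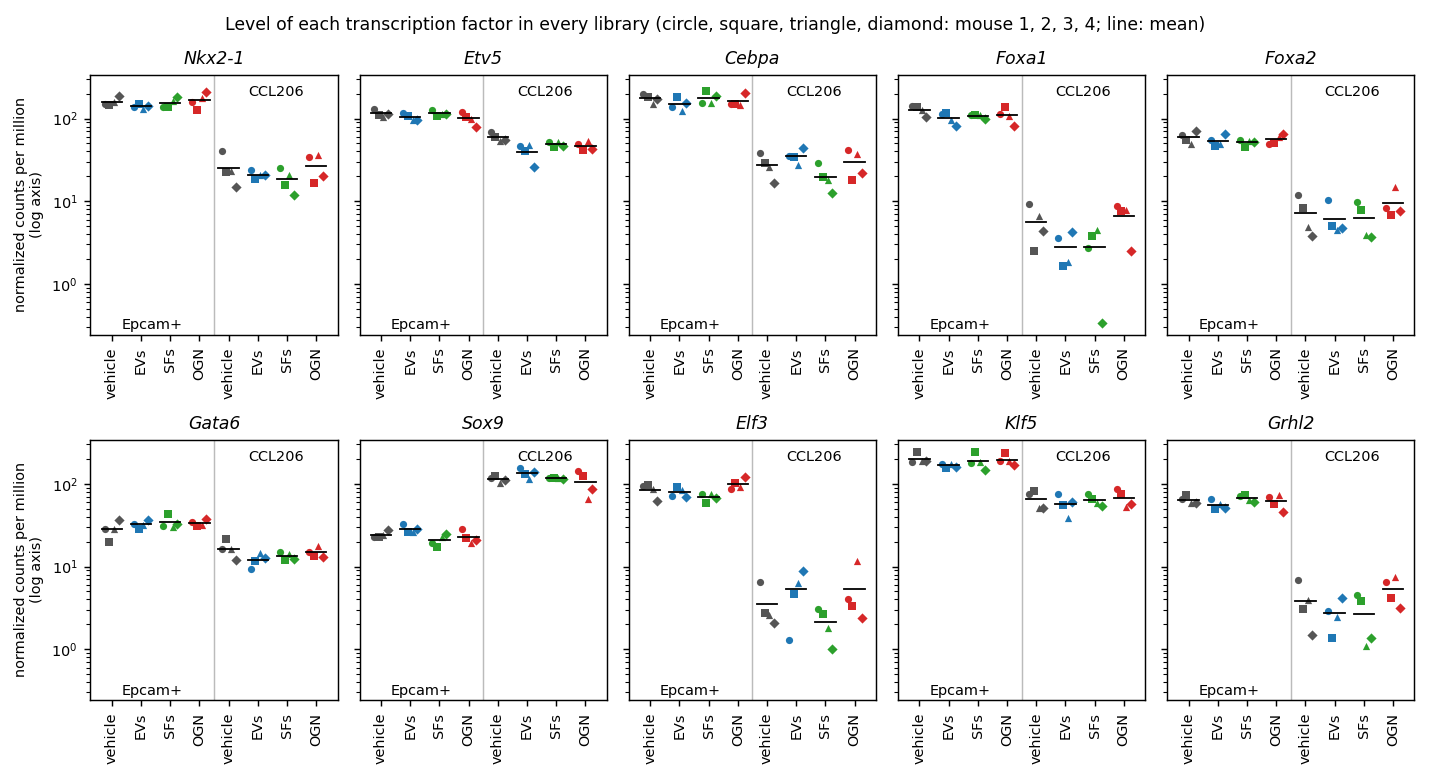
Level of each transcription factor in all 32 libraries, as normalized CPM on a log axis, by population and treatment, with a symbol for each mouse and a line at the mean of 4 mice. Sox9 is the member with higher levels in CCL206 fibroblasts, Gata6 is the member whose populations overlap, and Foxa1, Elf3 and Grhl2 fall below 10 normalized CPM in nearly all fibroblast libraries.

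In vehicle-treated cultures 9 of the 10 factors were higher in Epcam+ cells than in CCL206 fibroblasts and Sox9 was lower. By edgeR's quasi-likelihood test all 10 passed an adjusted p of 0.05, in a comparison in which 69.4% of the 11805 genes tested did so, 35.1% higher and 34.3% lower in Epcam+ cells. The median log2 difference was 2.73 over the members and 0.02 over all genes. For 9 of the 10 the 4 Epcam+ and the 4 CCL206 libraries did not overlap, as was the case for 65.8% of all genes tested. Fewer cells of a type and less RNA per cell cannot be told apart in such bulk samples.

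The pan-epithelial factors Elf3 and Grhl2 and the forkhead factor Foxa1 differed most. Elf3 had 94.9, 96.5, 87.6 and 61.6 normalized CPM in the Epcam+ libraries of mice 1 to 4 and 6.45, 2.78, 2.61 and 2.08 in the fibroblast libraries, a log2 difference of 4.68 (SE 0.331, adjusted p = 9.56e-13). Foxa1 had 143, 138, 128 and 105 in Epcam+ cells and 9.19, 2.5, 6.61 and 4.35 in fibroblasts, a log2 difference of 4.55 (SE 0.24, adjusted p = 2.32e-15). Every epithelial library lay far above every fibroblast library for both genes, and the fibroblast counts behind these values were small, from 18 to 87 for Foxa1. Grhl2 had 63.5 ± 6.66 in Epcam+ cells and 3.83 ± 2.26 in fibroblasts (SD, n = 4 each), a log2 difference of 4.16 (SE 0.236, adjusted p = 1.02e-14). Klf5, the other broadly epithelial factor, differed less, with 202 ± 29 and 64.8 ± 15.5 normalized CPM and a log2 difference of 1.67 (SE 0.116).

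Of the AT2 factors other than Foxa1, Foxa2 had a log2 difference of 3.14 (SE 0.226), Nkx2-1 of 2.75 (SE 0.151) and Cebpa of 2.72 (SE 0.192), all higher in Epcam+ cells in 4 of 4 mice. Nkx2-1 still reached 25.2 ± 10.9 normalized CPM in the fibroblast fraction and Cebpa 27.8 ± 9.14, against 160 ± 17.8 and 175 ± 20.7 in Epcam+ cells (SD, n = 4 each). Etv5, with 115 ± 11.7 and 59.5 ± 7 normalized CPM, was 1.95-fold higher in Epcam+ cells (log2 difference 0.96, SE 0.105). Gata6 showed the smallest difference, 0.81 (SE 0.162, adjusted p = 7.75e-05). Its level was 28.7, 19.6, 28.5 and 36.3 in Epcam+ cells and 16.1, 21.4, 16.1 and 12.1 in fibroblasts of mice 1 to 4. The populations overlapped for this gene, and in mouse 2 the fibroblast library was the higher.

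Sox9 went the other way, with 22.6, 22.5, 24.1 and 27.3 normalized CPM in Epcam+ cells of mice 1 to 4 and 117, 125, 102 and 112 in fibroblasts. The log2 difference was -2.25 (SE 0.15, adjusted p = 2.69e-13), the same sign in 4 of 4 mice. The fibroblast signature genes, which mark the other fraction, had a median log2 difference of -2.16 in the same comparison, and whether the Sox9 reads of the Epcam+ libraries come from fibroblasts was not tested.

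The same directions were found in each treated culture. All 10 members passed the test with EVs (66.6% of all genes called, 32.6% higher and 34% lower in Epcam+ cells), with SFs (65.7%, 33% higher and 32.8% lower) and with OGN (70.5%, 36.2% higher and 34.3% lower). In each, 9 were higher in Epcam+ cells and Sox9 was lower. With any treatment the libraries of the populations did not overlap for any of the 10, and the same held for 50.1% of all genes with EVs, 62.1% with SFs and 64.1% with OGN. Across the alternatives tried, Sox9 stayed between -2.55 and -2.03 on the log2 scale, and Gata6 in vehicle-treated cultures between 0.55 and 1.08, with adjusted p of at most 0.0136.

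The share of its Epcam+ level that a factor kept in the CCL206 library of the same culture set the members apart from each other. Over the 16 cultures the median share was 3.72% for Elf3, 3.74% for Foxa1 and 5.76% for Grhl2. These shares lay close to that of the Epcam gene itself (4.17%) and to the median epithelial marker (6.4%). Foxa2 (12.6%), Nkx2-1 (14.6%) and Cebpa (18%) lay higher, near the AT2 signature genes, whose median share was 21%. Klf5 (33.4%), Etv5 (44.1%) and Gata6 (44.2%) had the highest shares of the factors that were lower in fibroblasts. Like Foxa2, Nkx2-1 and Cebpa, they lay above each of the 8 epithelial markers, of which Cdh1 had the largest median share at 9.48%. The median share of Sox9 was 492%. Shares varied between cultures by severalfold for the low genes, from 0.34% to 7.93% for Foxa1 and from 1.53% to 13% for Elf3, while Etv5 kept between 26.9% and 54.3%. How much of each share is carried-over epithelial RNA was not tested.

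**Figure D2:**
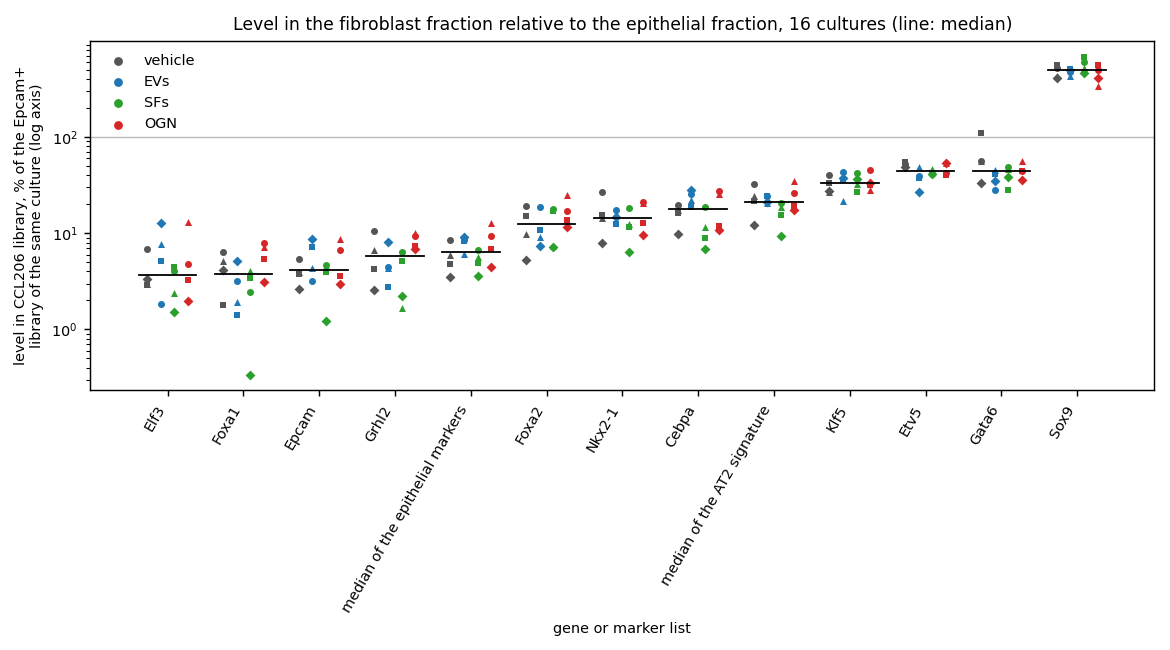
Level of each factor, of Epcam and of 2 marker lists in the CCL206 library as a percentage of the Epcam+ library of the same culture, on a log axis, for 16 cultures colored by treatment, with a line at the median. Elf3, Foxa1 and Grhl2 lie with Epcam and the epithelial markers, Foxa2, Nkx2-1 and Cebpa with or just below the AT2 signature, Klf5, Etv5 and Gata6 above it, and Sox9 above 100%.

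The study asked what EVs, SFs and OGN do to the epithelial cells, and of the 10 lineage factors 1 was called in Epcam+ cells, Foxa1 with EVs. In that comparison 0.888% of the 11716 genes tested were called, 0.35% lower with EVs. Foxa1 had 143, 138, 128 and 105 normalized CPM with vehicle in mice 1 to 4 and 113, 118, 95.4 and 81.7 with EVs. The value was lower with EVs in 4 of 4 mice, although the groups overlap, since mouse 4 was low with vehicle as well. The log2 fold change was -0.36 (SE 0.0842, 95% interval -0.54 to -0.19, adjusted p = 0.0385), a level 22.3% below vehicle.

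This call stood near the threshold. It was lost without mouse as a block (adjusted p = 0.398), with the mean fibroblast signature of each library as a covariate (log2 fold change -0.33, adjusted p = 0.665) and without any 1 of the mice (adjusted p from 0.0526 without mouse 4 to 0.411 without mouse 3), while the fold change stayed between -0.40 and -0.33. The number of genes called in this comparison fell from 104 to 9 without the block and to 12 with the covariate. Without mouse 1, 2 or 3 it was 18, 28 and 17, and without mouse 4 it was 156. In Epcam+ cells the fibroblast signature had a summed level of 2240 to 3110 normalized CPM with vehicle and 3160 to 3740 with EVs. Its genes Col1a2, Dcn, Fn1 and Lum were called higher. Since these levels did not overlap, the fit with the covariate cannot fully separate the signature from the treatment. Markers of airway cells, which also express Foxa1, had a summed level of 4290 to 6590 with vehicle and 2750 to 4130 with EVs, and 5 of 8 were called lower (Bpifa1, Cyp2f2, Krt15, Krt5 and Scgb1a1). The part of the airway cells in the Foxa1 result was not tested.

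With SFs, Foxa1 had 111, 111, 111 and 99.6 normalized CPM in Epcam+ cells of mice 1 to 4, and with OGN 112, 139, 108 and 80.2. Its log2 fold change was -0.25 with SFs (SE 0.0857, adjusted p = 0.454) and -0.24 with OGN (SE 0.0851, adjusted p = 0.17), neither of which passed the test. Of the 8 airway markers 4 were called lower with SFs and 5 with OGN, with a summed level of 2810 to 4620 with SFs and 2610 to 4210 with OGN, while the fibroblast signature had 2600 to 3510 with SFs and 2050 to 2590 with OGN. All of these comparisons share the vehicle-treated libraries.

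The other 9 members were not called with EVs in Epcam+ cells. Klf5 (-0.27, SE 0.0926), Cebpa (-0.26, SE 0.104) and Nkx2-1 (-0.21, SE 0.0949) had log2 fold changes with an unadjusted p under 0.05, and after adjustment theirs were 0.25, 0.344 and 0.448. With the median log2 fold change of the members at -0.18, against -0.00307 for all genes, 8 of the 10 values were negative. Gata6 (0.18, SE 0.141) and Sox9 (0.22, SE 0.145) were the positive ones.

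With OGN, 0 of the 10 members were called in Epcam+ cells by edgeR and 0 by DESeq2, where 2.7% of all genes were called. Unadjusted p was under 0.05 for 2 of them, Foxa1 and Etv5 (-0.20, SE 0.0818, adjusted p = 0.285). Nkx2-1 stood at 0.06 on the log2 scale (95% interval -0.14 to 0.26) and Cebpa at -0.12 (-0.33 to 0.10), so changes of a size within these intervals remain possible. Foxa2 was at -0.07, Klf5 at -0.04 and Grhl2 at -0.03, each with an SE near 0.1. Elf3 (0.22, SE 0.132) and Gata6 (0.25, SE 0.143) had positive values that did not pass. With SFs 0 of 10 members were called by edgeR and 0 by DESeq2 (0.23% of all genes), and 2 had an unadjusted p under 0.05, Foxa1 and Elf3 (-0.30, SE 0.135, adjusted p = 0.62).

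**Figure D3:**
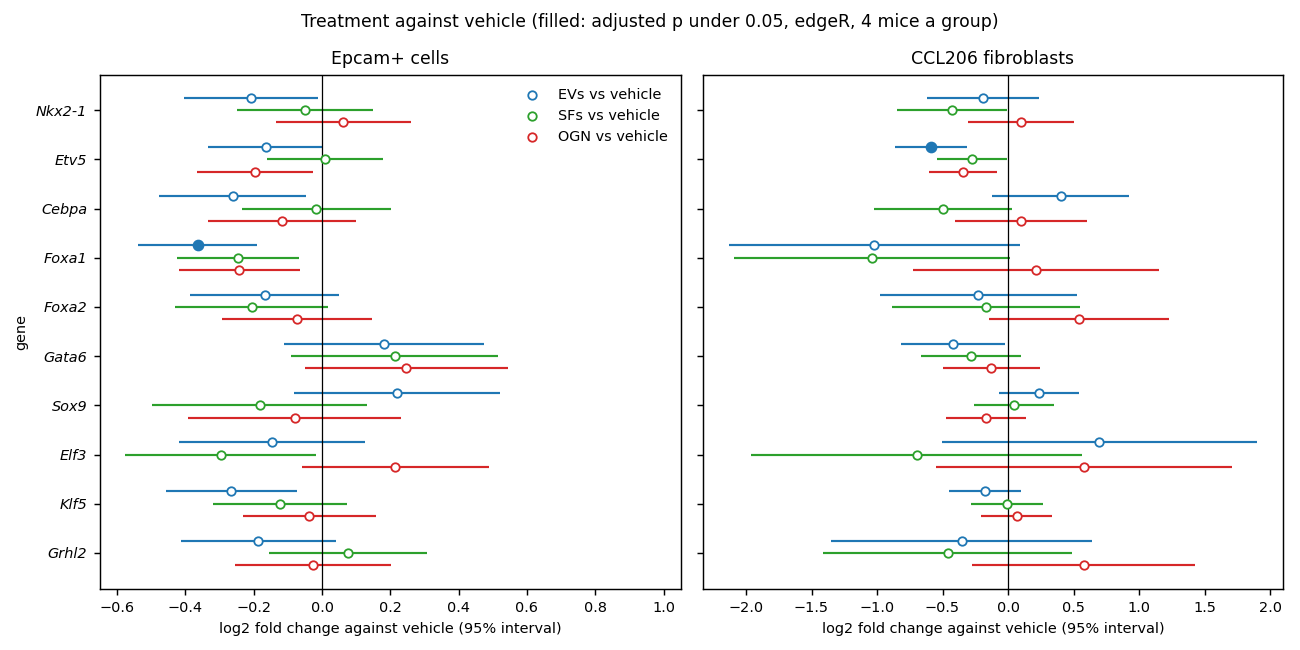
Log2 fold change of each factor against vehicle with its 95% interval, for EVs, SFs and OGN in Epcam+ cells and in CCL206 fibroblasts (on a wider axis), with filled points where the adjusted p was under 0.05. The filled points are Foxa1 with EVs in Epcam+ cells (-0.36) and Etv5 with EVs in CCL206 fibroblasts (-0.59).

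In CCL206 fibroblasts 1 member was called as well, Etv5 with EVs, in a comparison in which 36% of the 11689 genes tested were called, 16.2% lower with EVs. Etv5 had 69.3, 59.5, 53.9 and 55.1 normalized CPM with vehicle in mice 1 to 4 and 46, 40, 47.3 and 26 with EVs. All 4 EV-treated libraries lay below all 4 vehicle-treated libraries. The log2 fold change was -0.59 (SE 0.129, 95% interval -0.86 to -0.31, adjusted p = 0.00617), a level 33.4% below vehicle. The call was lost without mouse 2 (log2 fold change -0.60, adjusted p = 0.0684), without mouse 4 (-0.45, adjusted p = 0.052) and when the 8 libraries compared were fitted alone (-0.60, adjusted p = 0.0607), while the fold change stayed negative and of similar size. The number of genes called overall fell from 4207 to 19 without mouse 2 and to 711 without mouse 4. With the trend along transcript length removed, an alternative added after the data had been seen, the log2 fold change was still called (adjusted p = 0.00594).

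Etv5 was also below vehicle in 4 of 4 mice with SFs and with OGN in this fraction. It had 52.3, 45.6, 52.2 and 46.6 normalized CPM with SFs (log2 fold change -0.27, SE 0.125, adjusted p = 0.923) and 49.9, 42.1, 53.3 and 42.6 with OGN (-0.34, SE 0.123, adjusted p = 0.158). Neither passed the test in the model of 16 libraries. In a fit without the EV-treated libraries, added after the data had been seen, the OGN value of Etv5 was called with much the same fold change (-0.33, adjusted p = 0.0146), and 15.1% of all genes were called. It was also called when the 8 libraries compared were fitted alone (-0.33, adjusted p = 0.046), with 11.7% of all genes.

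The other 9 members were not called with EVs in fibroblasts. Gata6 (-0.42, SE 0.186, adjusted p = 0.0893) came closest. The low counts of Foxa1 (-1.02, 95% interval -2.13 to 0.09), Elf3 (0.70, -0.51 to 1.90) and Grhl2 (-0.35, -1.35 to 0.64) gave wide intervals that span 0. Without mouse 4 the log2 fold change of Elf3 was 0.10, and without mouse 1 it was 1.45 and called (adjusted p = 0.047). Between the fits without 1 mouse, Foxa1 ranged from -1.41 to -0.70, Grhl2 from -0.96 to -0.02 and Gata6 from -0.58 to -0.25, none of them called. With OGN 0 of 10 were called by edgeR and 0 by DESeq2 (4.56% of all genes), with 1 unadjusted p under 0.05, that of Etv5. With SFs 0 of 10 were called by edgeR and 0 by DESeq2 (0.0599% of all genes), with 2 unadjusted p under 0.05, those of Etv5 and Nkx2-1 (-0.43, SE 0.197). The median log2 fold change of the members with SFs was -0.36, against -0.000405 over all genes, and 9 of the 10 values were negative. In the SF-treated fibroblast library of mouse 4, 5 of the members (Nkx2-1, Cebpa, Foxa1, Foxa2 and Elf3) had their lowest level of the 16 fibroblast libraries. Foxa1 had 0.339 normalized CPM there, which is 2 counts. The 8 epithelial markers together had 165 to 409 normalized CPM in the SF-treated, 212 to 540 in the vehicle-treated, 388 to 650 in the EV-treated and 357 to 694 in the OGN-treated fibroblast libraries, and the part of carried-over epithelial RNA in the values of the low members was not tested.

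Whether a treatment acted differently on a factor in the 2 populations was tested as an interaction over all 32 libraries. With EVs this held for Etv5, where 23.8% of the 11805 genes were called, 12% with the lower fold change in fibroblasts. Its fold change in fibroblasts was lower than that in Epcam+ cells by 0.44 on the log2 scale (difference -0.44, SE 0.152, adjusted p = 0.036), in the same direction in 4 of 4 mice. The call was lost without mouse 1, 2 or 4 (difference -0.44, -0.41 and -0.35, adjusted p = 0.0947, 0.156 and 0.16) and without the block (-0.42, adjusted p = 0.103), while the difference stayed near its value. In Epcam+ cells Etv5 had 132, 110, 105 and 114 normalized CPM with vehicle and 116, 107, 96.5 and 96.6 with EVs (log2 fold change -0.17, SE 0.0807, adjusted p = 0.502). With OGN 0 members were called by edgeR and 0 by DESeq2 (0.551% of all genes), and 0 had an unadjusted p under 0.05. With SFs 0 members were called by edgeR and 0 by DESeq2 (0% of all genes by edgeR), and Foxa1 and Gata6 had an unadjusted p under 0.05.

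Direct comparisons between the treatments were added after the data had been seen. In Epcam+ cells Elf3 was higher with OGN than with SFs, with 85.6, 102, 91.2 and 120 normalized CPM in mice 1 to 4 against 74.4, 59.1, 74.5 and 66.7. All 4 OGN values lay above all 4 SF values, and the vehicle values of 94.9, 96.5, 87.6 and 61.6 overlapped with both groups. The log2 difference was 0.51 (SE 0.134, adjusted p = 0.0494), in a comparison with 1.91% of genes called, 0.819% higher with OGN. The call was lost without the block (adjusted p = 0.0774), without any 1 of the mice (0.0808 without mouse 1 to 0.156 without mouse 4, with differences from 0.38 to 0.63) and with the fibroblast signature as a covariate, where the difference was 0.16 (adjusted p = 0.996). The number of genes called between OGN and SFs fell from 224 to 74 without the block and to 23 with the covariate. Without 1 mouse it was 72 to 136. OGN against EVs (2.22% of genes) and EVs against SFs (0.0256%) had 0 members called by edgeR and by DESeq2 in Epcam+ cells, with 4 unadjusted p under 0.05 in each.

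**Figure D4:**
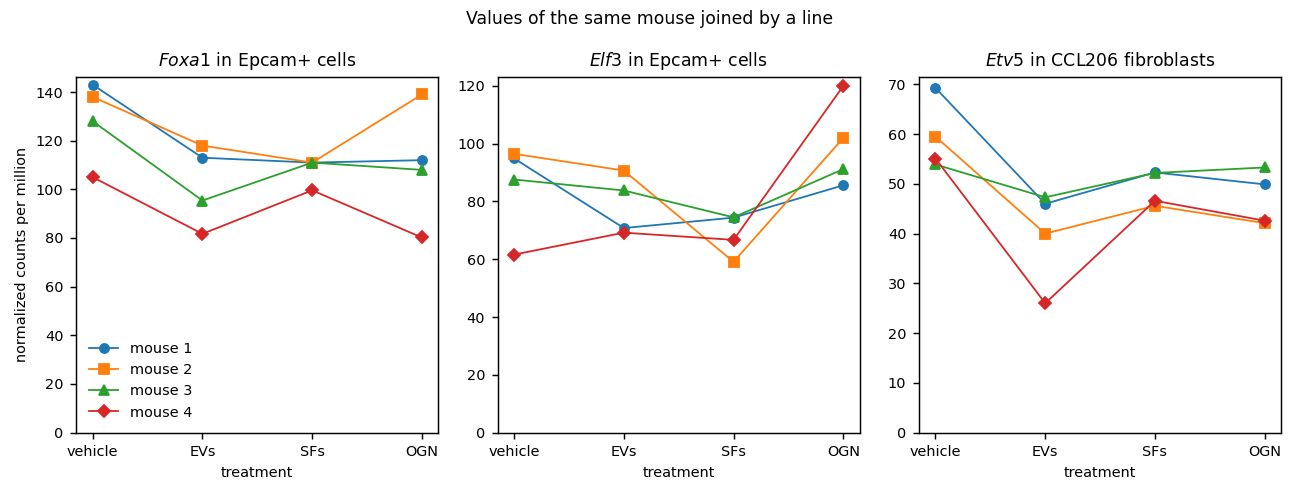
Normalized CPM of Foxa1 and Elf3 in Epcam+ cells and of Etv5 in CCL206 fibroblasts under each treatment, with the values of a mouse joined by a line and axes that start at 0. Foxa1 is lower with EVs than with vehicle in each mouse, Elf3 is higher with OGN than with SFs in each mouse, and Etv5 is lower with EVs than with vehicle in each mouse, most in mouse 4 (26 against 55.1).

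In CCL206 fibroblasts Sox9 was lower with OGN than with EVs. It had 142, 123, 65.4 and 87 normalized CPM with OGN and 154, 132, 113 and 140 with EVs, lower in 4 of 4 mice by 0.12, 0.10, 0.79 and 0.68 on the log2 scale, so that mice 3 and 4 carried most of it, and the groups overlap. The difference was -0.41 (SE 0.145, adjusted p = 0.038, 37.6% of genes called, 20.2% lower with OGN), and it was lost without mouse 2, 3 or 4 (difference -0.51, -0.29 and -0.31, adjusted p = 0.0976, 0.134 and 0.206). Cebpa was higher with EVs than with SFs, with 35.3, 34.2, 27.3 and 43.5 against 28.8, 19.4, 18 and 12.5, a log2 difference of 0.90 (SE 0.257, adjusted p = 0.0224, 28.9% of genes called, 15.8% higher with EVs). This call was lost without mouse 2, where the difference was 0.93 (adjusted p = 0.165), and without mouse 4, where it fell to 0.57 (adjusted p = 0.17). The 8 libraries compared alone gave 0.87 (adjusted p = 0.126), and with the epithelial markers of each library as a covariate the difference was 0.27 (adjusted p = 0.51). The number of genes called between EVs and SFs fell with it, from 3380 to 0 without mouse 2 and to 0 without mouse 4. It was 0 with the 8 libraries alone and 3 with the covariate, so the loss was not particular to Cebpa. OGN against SFs had 0 members called by edgeR and 0 by DESeq2 (2.79% of genes), with 5 unadjusted p under 0.05. Without the EV-treated libraries Nkx2-1 (0.54, adjusted p = 0.0355), Cebpa (0.60, adjusted p = 0.0245) and Foxa1 (1.27, adjusted p = 0.0412) were called higher with OGN than with SFs in this fraction, in a fit that called 11% of all genes. With the epithelial markers as a covariate in the fit of 16 libraries, the difference was -0.01 for Nkx2-1, -0.13 for Cebpa and 0.64 for Foxa1, and none was called (adjusted p = 0.968, 0.683 and 0.462).

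The levels of the members were steady among the Epcam+ libraries. From the lowest to the highest of 16 libraries, Foxa2 spanned 1.55-fold (45.8 to 70.9 normalized CPM), Nkx2-1 1.64-fold (128 to 210) and Cebpa 1.74-fold (124 to 216), and Gata6 spanned the most, 2.2-fold (19.6 to 43.1). In the fibroblast libraries Nkx2-1 spanned 3.42-fold, Elf3 11.6-fold and Foxa1 27.1-fold, at far lower counts, whereas Gata6 (2.28-fold), Klf5 (2.29-fold) and Sox9 (2.36-fold) varied less. A test of the mouse term, added after the data had been seen, called Foxa1 in Epcam+ cells (2.04% of genes called), where the fitted mice spanned 0.48 on the log2 scale (adjusted p = 0.0148). Mouse 4 had the lowest Foxa1 value under each of the 4 treatments, and the call was lost without mouse 4 (adjusted p = 0.317) and without mouse 1 (0.0577). In fibroblasts 0 of 10 members were called for mouse by edgeR (0.915% of genes called), which was not run in DESeq2, with an unadjusted p under 0.05 for Klf5, Nkx2-1, Foxa2 and Sox9.

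For each member, the genes of the table with the most similar profile were found by the root mean square difference of their centred log2 levels over the 32 libraries. Since the populations differ far more than the treatments, this mainly compares the step between Epcam+ cells and fibroblasts. The closest profile of any was that of Prkci to Etv5, with a difference of 0.129 on the log2 scale. Nkx2-1 was nearest to Wwc1 (0.185) and Icam1 (0.187), Cebpa to Anxa3 (0.238) and Ctsh (0.249), the latter a protease of the AT2 signature, and Elf3 to Krt7 (0.432) and Epcam (0.452). Foxa1 lay 0.488 from its nearest gene, Nup210. Its log2 levels in the fibroblast libraries had an SD of 1.2, with as few as 2 counts, and the part of this spread in the distance was not tested. Among the members themselves Nkx2-1 and Cebpa were the closest pair (0.292), and the nearest member to Sox9 was Etv5 at 1.77.

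Relatives of the members from the same protein families did not share the epithelial side as a group. Of 21 family relatives tested in vehicle-treated cultures, 5 had higher and 12 had lower levels in Epcam+ cells than in fibroblasts, and their median log2 difference was -0.53. Ehf, an ETS factor close to Elf3, was higher by 4.33 (SE 0.145), whereas the ETS factor Etv1, close to Etv5, was lower (-1.95, SE 0.118), as was Gata4 (-2.27, SE 0.267), the cardiac and endodermal relative of Gata6. Of 19 mesenchymal factors 17 were lower in Epcam+ cells and 1 was higher, against the same shares of all genes. Among them Prrx1, a limb and fibroblast homeobox gene, differed by -2.58 (SE 0.106). With OGN, Cebpd, a stress-induced relative of Cebpa, was the only relative called in Epcam+ cells (0.89, SE 0.181, adjusted p = 0.00574), where 2.7% of all genes were called. In fibroblasts, where 4.56% were called, Ehf was higher (1.30, SE 0.238) while Gata4 (-0.60, SE 0.134) and Klf10 (-0.70, SE 0.177) were lower. The part of carried-over epithelial RNA in the Ehf value was not tested.

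Of 12 surfactant and lamellar body genes, which are targets of Nkx2-1 and Cebpa, 3 were called higher in OGN-treated Epcam+ cells, where 2.7% of all genes were called, and none was called lower. An unadjusted p under 0.05, whatever the direction of the change, was found for 8 of the 12, among them Abca3, Ctsh, Lamp3, Lpcat1 and Slc34a2, which were not called. The 3 called genes were Sftpa1 (0.42, SE 0.0852) and Sftpd (0.45, SE 0.0932), which encode the collectins of surfactant, and Lyz2, a lysozyme (0.69, SE 0.0886). The same 3 genes were called higher in the OGN-treated fibroblast libraries (Sftpa1 0.83, SE 0.187, Sftpd 0.88, SE 0.236, Lyz2 1.03, SE 0.211), where 4.56% of all genes were called. The epithelial markers of those libraries were given above, and their part in these values was not tested. The median of the list was -0.00167 on the log2 scale in Epcam+ cells, against -0.00308 for all genes. Of 12 epithelial adhesion and splicing genes, several are Grhl2 targets. All 12 were higher in Epcam+ cells than in fibroblasts with vehicle, as were 35.1% of all genes. With OGN Tjp3, a tight junction scaffold, was called in Epcam+ cells (0.44, SE 0.0861). A list of 10 FGF-ERK response genes held genes induced by the signal that induces Etv5, and the receptor gene Fgfr2. Of these 10, 0 were called in Epcam+ cells with any treatment by edgeR. An unadjusted p under 0.05 was found for 0 with OGN, 0 with SFs and 3 with EVs (Fgfr2, Spry1 and Spry4). In OGN-treated fibroblasts 3 were lower, the feedback inhibitors Spry2 (-0.89, SE 0.15), Spry4 (-1.02, SE 0.214) and Il17rd (-0.85, SE 0.199). There 4.56% of all genes were called and 1.86% were lower. The list as a whole did not fall, with a median log2 fold change of 0.067 against -0.0109 for all genes. With EVs 4 were lower in fibroblasts, Etv1, Il17rd, Spred1 and Spred2, with log2 fold changes from -0.32 to -0.89, where 36% of all genes were called and 16.2% were lower. None of these 4 was called by edgeR without mouse 2 or without mouse 4, with log2 fold changes from -0.31 to -0.77 and from -0.26 to -0.76. Of 16 other epithelial factors 1 was called with OGN in Epcam+ cells, Hopx, a homeodomain protein that the study counts in its AT2 signature (-0.64, SE 0.135, adjusted p = 0.0077). Of the 10 signature genes 1 was called lower, Hopx, and 2 were called higher, Sftpa1 and Sftpd. Among 9 markers of alveolar type 1 cells 2 were called lower, Ager and Cav1, and 0 higher.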

How the data were processed

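RNA-seq libraries of 8 groups (Epcam+ cells or CCL206 fibroblasts, with vehicle, EVs, SFs or OGN) from 4 mice were analyzed. Raw read counts per gene, without normalization, were deposited by the authors for 11818 genes in 32 libraries, of 1805914 to 17675454 counts each. Reads had been trimmed with Trimmomatic (version 0.30) and aligned to GRCm39 according to the labels, or GRCm38 (patch 6) according to the methods. The aligner, counter, annotation and strand setting are not given in the sources used here. All genes had at least 1 count in every library, a filter that these sources do not describe.

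Counts were normalized by TMM and tested with edgeR (version 4.0.16, R version 4.3.3), with filterByExpr and the quasi-likelihood F test. The model held mouse and treatment over the 16 libraries of a population (11716 genes tested in Epcam+ cells, 11689 in CCL206), or group means and mouse effects within each population over all 32 libraries (11805). P was adjusted by Benjamini-Hochberg over all genes tested, and adjusted p under 0.05 was called. SE is the absolute log2 fold change over the square root of F. Normalized CPM (counts scaled to library size) use TMM factors of all 32 libraries, and values per kb the GENCODE vM39 canonical transcript. The mouse numbers pair the libraries, since cells of 1 animal entered each culture, and same-mouse residuals correlated with a mean r between 0.104 and 0.233. In all 48 pairs of replicate libraries counts differed by more than counting error. The steps were tested on simulated data.

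Alternatives were DESeq2 (version 1.42.0), RLE size factors, no filter, no mouse term, 1 mouse left out, the 8 libraries compared alone and a covariate of the other fraction's markers, and, added after the data had been seen, removal of the length trend and of the EV-treated libraries. The members and gene lists were chosen with earlier results of these data known. The AT2 and fibroblast signatures are lists of the study. All 10 members are named, and of each other list the 2 genes with the smallest p with OGN in each population or the genes of a count of 3 or fewer. Genes of larger counts (airway, fibroblast and FGF-ERK genes with EVs) and Etv1 were named after their values had been seen. Promoter windows are those of RefSeq (GRCm38.p6). Figures were drawn with matplotlib (version 3.10.9).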

Additional observations from a re-analysis of the deposited data

Results flagged for a closer look

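Within the 80 groups of 4 libraries (10 members, 8 groups), 5 held a library whose distance to the nearest of the others passed Dixon's 95% limit, where chance alone gives about 1 in 20. In OGN-treated Epcam+ cells mouse 4 had 204 normalized CPM of Cebpa, and the others had 147 to 151. In SF-treated Epcam+ cells mouse 4 had 99.6 of Foxa1, beside 111 in each of the others. In the CCL206 fraction mouse 4 had 2.51 of Foxa1 with OGN (others 7.56 to 8.84), and mouse 1 had 10.4 of Foxa2 with EVs (others 4.44 to 4.97). With vehicle, mouse 2 had 245 of Klf5 in Epcam+ cells, against 184 to 191.

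The response of Etv5 to EVs differed between CCL206 fibroblasts and Epcam+ cells by -0.443 on the log2 scale (edgeR interaction, adjusted p = 0.036).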

How the results depend on the processing

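The difference between Epcam+ cells and CCL206 fibroblasts had 10 of 10 members called with every treatment under each alternative run. The calls between treatments were few and depended on the fit. Without the replicate block, 0 members were called for EVs against vehicle and OGN against SFs in Epcam+ cells, 0 for OGN against EVs in CCL206 fibroblasts and 0 for the interaction with EVs, each 1 with it. The block changed no other count. With the marker covariate, EVs against vehicle and OGN against SFs in Epcam+ cells had 0, and in fibroblasts EVs against vehicle had 2 (Nkx2-1 and Etv5), OGN against EVs 3 (Cebpa, Foxa1 and Sox9) and EVs against SFs 0. With the 8 libraries compared alone, fibroblasts had 1 member for OGN against vehicle (Etv5), 0 for EVs against vehicle, 1 for SFs against vehicle (Cebpa), 0 for OGN against EVs, 3 for OGN against SFs and 0 for EVs against SFs, and OGN against SFs in Epcam+ cells had 0. Without the EV-treated libraries, OGN against vehicle had 1, OGN against SFs 3 in fibroblasts and 0 in Epcam+ cells, where removal of the length trend also gave 0. DESeq2 called 2 members for EVs against SFs in fibroblasts (Cebpa and Elf3) and 2 for the interaction with EVs (Etv5 and Gata6).

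With 1 mouse left out in turn, EVs against vehicle had 0 to 0 members in Epcam+ cells and 0 to 2 in fibroblasts (0 without mouse 2 or 4, Elf3 added without mouse 1), OGN against EVs 0 to 1 in Epcam+ cells (Nkx2-1 without mouse 2) and 0 to 2 in fibroblasts (0 without mouse 2 or 3), OGN against SFs 0 to 0 in Epcam+ cells, EVs against SFs 0 to 2 in fibroblasts, the interaction with EVs 0 to 1 and the mouse term in Epcam+ cells 0 to 1. The causes were not tested. Of the values of single members under single alternatives, 0 changed sign while called, and 78 (43 planned and 35 added) changed sign while called under neither fit. Depth limits the fibroblast values of Foxa1, Elf3 and Grhl2, whose lowest counts were 2, 4 and 5. Over all genes, the number called for EVs against vehicle in fibroblasts was 4207, and 19 without mouse 2. The TMM scale of a library within its own population differed from its TMM scale over all libraries by at most 0.039 on the log2 scale.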
